A study of Mus musculus with 10 samples.

Results

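Elastic fibre and microfibril genes were read from Affymetrix arrays of mouse aorta as all probe sets whose platform symbol is Eln, Fbn1, Fbln5, Efemp2, Emilin1, Lox, Loxl1, Mfap4, Mfap5 or Ltbp4. A probe set is a group of short probes whose signals are summarised as a single value. This gave 15 of the 45101 probe sets, for 8 of the 10 genes. Fbn1 and Efemp2, matched to no probe set by symbol in the annotation used, were not analysed here. Of the 15 probe sets, 14 passed the filter on low values and were tested; the other, a Lox probe set, lay under it on all 9 arrays.

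The aortas came from male C57BL/6 mice, either wild type or Ptgds-/-. Ptgds encodes lipocalin-type prostaglandin D synthase (L-PGDS), and the comparison asks how the aorta transcriptome differs without this enzyme. Arrays with values numbered 4 for wild type (replicates 1, 3, 4 and 5) and 5 for the knockout (replicates 1 to 5), each a separate biological replicate per the labels; wild type replicate 2 has no processed data. The labels give neither the age of the mice nor the exons that the allele lacks, and all mice were housed under the same light cycle and diet.

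Elastin, secreted as soluble tropoelastin, is laid onto a scaffold of fibrillin microfibrils and crosslinked by lysyl oxidases, copper enzymes that oxidise lysine side chains. Fibulins and EMILIN-1 connect the elastin core with microfibrils and cells, and latent TGF-beta binding proteins hold inactive TGF-beta in the matrix. In the aorta, smooth muscle cells of the media and fibroblasts of the adventitia make these proteins, and the resulting lamellae give the vessel its recoil.

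For 3 of the 8 genes with values the RefSeq table of promoters (GRCm38.p6) holds an entry, and the 250 bases before the start site are shown for all 3. Having an entry, not the size of the change, thus fixed which genes appear. At the brightest probe sets described below, the difference between genotypes was largest for Emilin1 and smallest for Fbln5, with Ltbp4 between them. For Ltbp4, with 3 entries, and Fbln5, with 2, the most upstream start was taken. Capitals mark GGGCGG (GC box) and CAGAC (SMAD core) on either strand.
Emilin1, chr5:30913536-30913785, plus strand: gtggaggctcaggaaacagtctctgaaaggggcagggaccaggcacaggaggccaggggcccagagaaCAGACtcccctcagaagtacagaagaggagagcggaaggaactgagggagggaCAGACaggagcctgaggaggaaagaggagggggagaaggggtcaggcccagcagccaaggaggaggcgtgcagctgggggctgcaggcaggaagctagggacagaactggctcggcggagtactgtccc
Ltbp4, chr7:27337613-27337862, minus strand: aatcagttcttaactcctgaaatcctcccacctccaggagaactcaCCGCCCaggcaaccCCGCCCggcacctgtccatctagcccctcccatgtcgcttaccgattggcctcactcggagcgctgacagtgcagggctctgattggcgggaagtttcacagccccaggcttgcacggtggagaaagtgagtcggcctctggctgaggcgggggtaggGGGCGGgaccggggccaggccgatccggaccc
Fbln5, chr12:101819120-101819369, minus strand: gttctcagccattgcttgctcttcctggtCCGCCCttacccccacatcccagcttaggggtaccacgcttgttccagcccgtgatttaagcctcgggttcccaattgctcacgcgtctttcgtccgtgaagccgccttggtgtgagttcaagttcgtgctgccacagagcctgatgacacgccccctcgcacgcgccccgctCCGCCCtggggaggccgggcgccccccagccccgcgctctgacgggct

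The Emilin1 window holds CAGAC at 2 positions and no GGGCGG. The Ltbp4 and Fbln5 windows hold no CAGAC, and GGGCGG stands at 3 positions in Ltbp4 and at 2 in Fbln5. Of all 32851 such windows in the table, 42.2% hold CAGAC and 32.7% hold GGGCGG on either strand, so neither is rare. Each of the 3 windows holds CANNTG (E box) at 1 position, as 66.2% of all windows do, and none holds TATAAA or a CArG box, present in 12.4% and 1.47%; no 2 of these matches overlap. These matches describe the letters only.

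Ptgds checked the genotype labels. Its probe set 1423859_a_at lay between 8.68 and 10.31 (log2) on the wild type arrays and between 3.67 and 4.40 on the knockout arrays, an exact two-sided permutation p of 0.0079, the smallest that 126 splits allow. The limma change was −5.30 (SE 0.31, adjusted p 0.0006), a size that is not exact because the mean over knockout arrays, 3.92, is under the filter of 4. The dimmer Ptgds probe set, 1423860_at, lay between 4.87 and 6.97 in wild type and between 3.92 and 4.35 in the knockout. Its change of −1.80 (SE 0.34) did not pass (adjusted p 0.0892, limma). The labelled tissue was also checked: all 8 smooth muscle markers were tested, and their mean lay between 12.28 and 12.57 on every array. Wild type replicate 3 stood apart, with a mean correlation of 0.973 with the other arrays against 0.984 to 0.987 for the rest. It also had the highest mean of 9 neuron markers, 10.93, followed by knockout replicate 1 at 9.18, with the other arrays between 4.82 and 7.62. Changes of probe sets and genes that moved by over 1.5 times without wild type replicate 3 are therefore given both ways. Marker means were not compared without it. Over the whole table, 21 of 26504 probe sets passed an adjusted p of 0.05 (limma), 0.0792%, and this count was 1631 without wild type replicate 1.

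Of the 14 tested probe sets of elastic fibre genes, 0 passed (limma, adjusted over the whole table), 7 had a change above 0 in the knockout and 7 below. At an unadjusted p under 0.05 there were 3, all higher in the knockout, where 18.9% of all tested probe sets reach that p in either direction and 10.5% do so upward. They belong to 2 genes, elastin and Emilin1. The wild type and knockout ranges overlapped for all 14, while over all probe sets 6.42% did not overlap. The median change of the 14 was 0.03 against 0.01 over all tested probe sets, both on the log2 scale. In whole tissue, fewer cells of a type and less RNA per cell cannot be told apart.

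Eln encodes elastin, the core of the fibre. On probe set 1420855_at it read 12.47, 12.39, 12.75 and 12.76 (log2) in wild type, in the replicate order 1, 3, 4, 5. Knockout replicates 1 to 5 read 12.97, 12.75, 12.96, 12.64 and 12.93. Knockout replicates 1, 3 and 5 lay above every wild type array, while knockout replicates 2 and 4 lay within the wild type range. The means were 12.60 ± 0.19 (SD, n = 4) and 12.85 ± 0.15 (SD, n = 5). The change was 0.25 (SE 0.11, 95% interval 0.01 to 0.50), 1.19-fold, and it did not pass (adjusted p 0.249, limma).

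The dimmer elastin probe set, 1420854_at, read 8.26, 7.83, 8.31 and 8.45 in wild type and 8.84, 8.43, 8.83, 8.26 and 8.50 in the knockout, in replicate order. Across the 9 arrays its order was nearly that of the brighter one, with a Pearson r of 0.92 and a Spearman rho of 0.996. Its change was 0.36 (SE 0.16, 95% interval 0.003 to 0.72) with an adjusted p of 0.262 (limma). Without wild type replicate 3, the lowest array on both, the changes were 0.19 (SE 0.11) for 1420855_at and 0.23 (SE 0.14) for 1420854_at. Beside these values, the mean of the smooth muscle markers was 12.28 to 12.48 in wild type and 12.38 to 12.57 in the knockout, with 7 of 8 markers above 0 in change and 0 called. With that mean as a covariate the changes were 0.19 (SE 0.15) and 0.16 (SE 0.19).

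Emilin1 encodes a glycoprotein at the border between elastin and microfibrils. Probe set 1416414_at read 8.33, 7.62, 8.00 and 7.81 in wild type and 8.44, 8.36, 8.58, 8.19 and 8.25 in the knockout, in replicate order. All knockout arrays lay above wild type replicates 3, 4 and 5, and wild type replicate 1 alone reached into the knockout range. From 7.94 ± 0.30 (SD, n = 4) to 8.37 ± 0.16 (SD, n = 5) the change was 0.43 (SE 0.14, 95% interval 0.11 to 0.74), 1.34-fold. It did not pass, with an adjusted p of 0.170 (limma).

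The Emilin1 change depended on single arrays. Without wild type replicate 1 it was 0.56 (SE 0.12) and passed, with an adjusted p of 0.0341 (limma), in a fit that also called 1631 probe sets. Without wild type replicate 3 it was 0.32 (SE 0.13), and with the smooth muscle marker mean as a covariate 0.16 (SE 0.13). The other Emilin1 probe set, 1431834_a_at, did not share the difference. It was dim, at percentiles 41.4 to 46.3 of all probe sets with a single symbol. It read 6.17, 5.68, 5.82 and 6.05 in wild type and 5.85, 5.83, 5.95, 5.91 and 5.85 in the knockout. Its change was −0.05 (SE 0.10, 95% interval −0.28 to 0.17), and it correlated with the first at a Pearson r of only 0.32 (Spearman rho 0.31, 9 arrays). That change was −0.14 (SE 0.09) without wild type replicate 3 and 0.03 (SE 0.09) without wild type replicate 1. The difference of Emilin1 therefore rests on 1 of 2 probe sets, the brighter one.

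**Figure D1:**
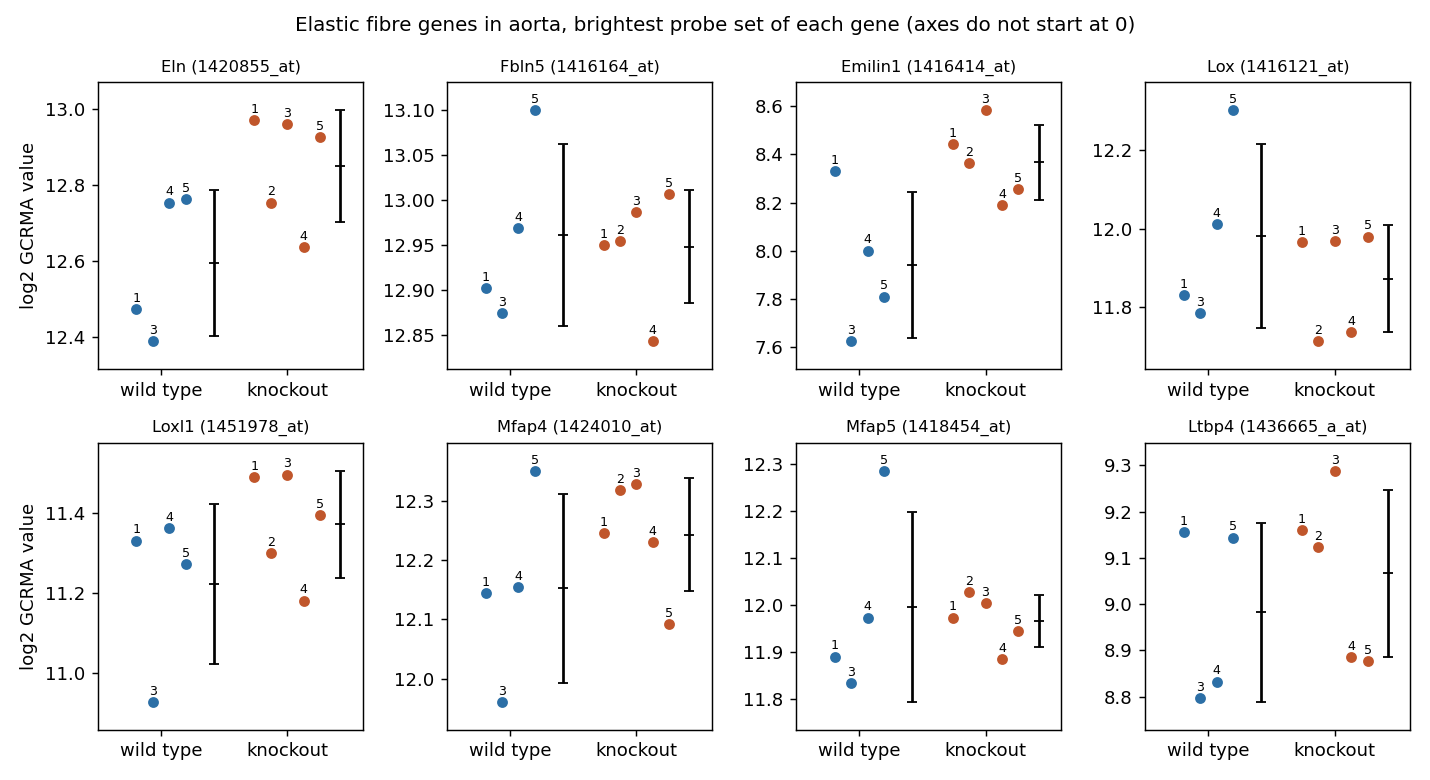
Log2 GCRMA value (y axis) of the brightest probe set of each gene on the 4 wild type arrays (blue) and 5 knockout arrays (orange), with replicate numbers; black bars are the mean and SD of each group. Wild type and knockout points overlap in every panel, and for Emilin1 wild type replicate 1 alone, at 8.33, lies within the knockout range.

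The crosslinking enzymes held no call. Lox encodes lysyl oxidase. Probe set 1416121_at read 11.83, 11.78, 12.01 and 12.30 in wild type and 11.97, 11.71, 11.97, 11.73 and 11.98 in the knockout. Wild type replicate 5 was the highest array, and knockout replicates 2 and 4 were below the rest. The change was −0.11 (SE 0.12, 95% interval −0.37 to 0.15). Probe set 1448228_at of Lox read 9.17, 9.35, 9.67 and 10.10 against 9.40, 8.90, 9.40, 8.97 and 9.31, and its change was −0.38 (SE 0.19, adjusted p 0.321, limma). When wild type replicate 5 was left out, these changes were −0.003 (SE 0.10) and −0.20 (SE 0.16). For 1416121_at it was −0.18 (SE 0.12) without wild type replicate 3. The 2 probe sets followed each other closely (Pearson r 0.94, Spearman rho 0.87), and so did the untested 1437903_at, which lay between 2.92 and 3.44 on all arrays.

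Loxl1 encodes the lysyl oxidase relative that binds tropoelastin and fibulin-5. Probe set 1451978_at read 11.33, 10.93, 11.36 and 11.27 in wild type and 11.49, 11.30, 11.50, 11.18 and 11.40 in the knockout. Wild type replicate 3 was the lowest array by a wide margin, and the remaining 8 lay between 11.18 and 11.50. The change was 0.15 (SE 0.11, 95% interval −0.09 to 0.39), and 0.05 (SE 0.09) without that array. The second probe set, 1436063_at, stood at 0.07 (SE 0.11), and at −0.04 (SE 0.08) without wild type replicate 3.

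Fbln5 encodes fibulin-5, which tethers elastin to integrins and is needed for fibre assembly in mice. Its bright probe set 1416164_at was among the steadiest, at 12.90, 12.87, 12.97 and 13.10 in wild type and 12.95, 12.95, 12.99, 12.84 and 13.01 in the knockout. The change was −0.01 (SE 0.07, 95% interval −0.16 to 0.14), a narrow interval beside those of the other genes. It was −0.04 (SE 0.07) without wild type replicate 3 and 0.03 (SE 0.07) without wild type replicate 5. The dim probe set 1446377_at read 6.55, 6.26, 7.06 and 7.11 against 6.25, 6.40, 6.48, 6.17 and 6.54. There wild type replicates 4 and 5 lay above all other arrays, and the change was −0.38 (SE 0.18, adjusted p 0.288, limma). The 2 probe sets thus differ in the size of the change, which was not tested between them.

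Among microfibril proteins, Mfap4, whose product binds elastin and fibrillin-1, read 12.14, 11.96, 12.15 and 12.35 in wild type and 12.25, 12.32, 12.33, 12.23 and 12.09 in the knockout. Its change was 0.09 (SE 0.09, 95% interval −0.11 to 0.29). Its lowest array was wild type replicate 3 and its highest wild type replicate 5. The change was 0.03 (SE 0.08) without the former and 0.16 (SE 0.08) without the latter. Mfap5, the microfibril glycoprotein MAGP-2, read 11.89, 11.83, 11.97 and 12.29 on 1418454_at in wild type and 11.97, 12.03, 12.00, 11.88 and 11.94 in the knockout. The knockout arrays of Mfap5 lay closely together, and wild type replicate 5 lay above all others. Its 2 probe sets stood at −0.03 (SE 0.09) for 1418454_at and −0.07 (SE 0.09) for 1449082_at. Without wild type replicate 3 they stood at −0.08 (SE 0.10) and −0.13 (SE 0.08), and without wild type replicate 5 at 0.07 (SE 0.07) and 0.007 (SE 0.08).

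Ltbp4 encodes the latent TGF-beta binding protein that works with fibulin-5 in elastic fibre assembly. It read 9.16, 8.80, 8.83 and 9.14 in wild type and 9.16, 9.12, 9.29, 8.89 and 8.88 in the knockout. Each genotype held 2 arrays under 8.9 and the others above 9.1, so the spread within groups exceeded the difference of 0.08 (SE 0.12, 95% interval −0.18 to 0.35). The value was 0.02 (SE 0.12) without wild type replicate 3.

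**Figure D2:**
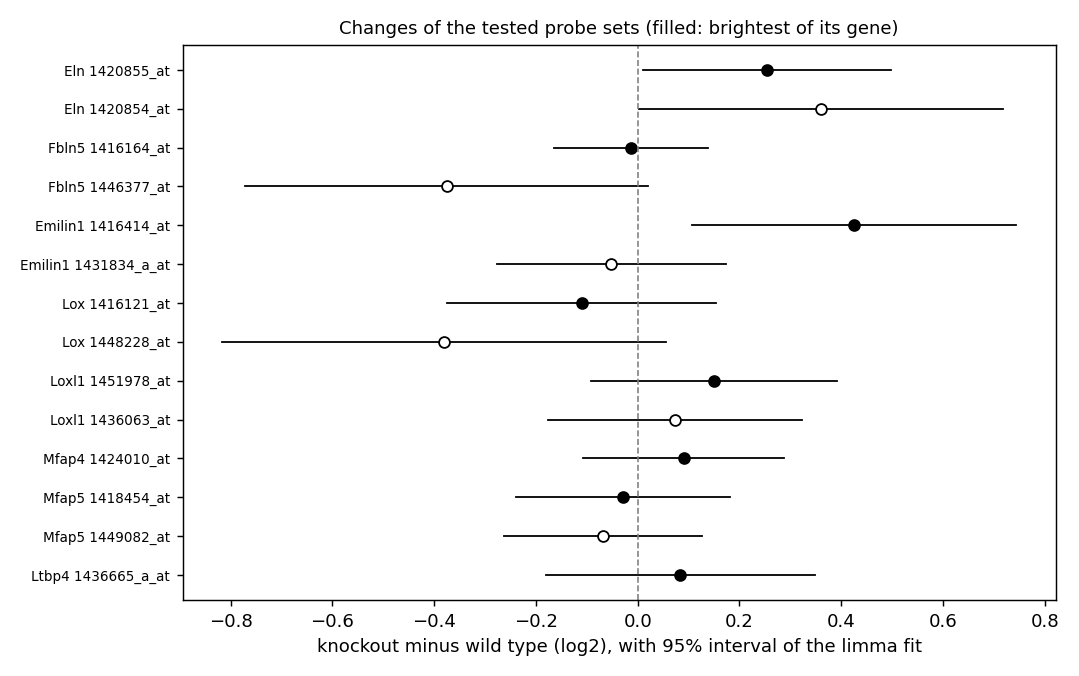
Change (x axis, knockout minus wild type, log2) of the 14 tested probe sets with the 95% interval of the limma fit; filled circles are the brightest probe set of a gene and open circles further ones. The intervals of the 2 Eln probe sets and of Emilin1 1416414_at lie above 0, before adjustment, and the other 11 include 0.

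The arrays differed in which of these genes were high or low. Wild type replicate 3 had 0 of the 8 genes above its own mean, and its mean deviation over the 8 brightest probe sets was −0.26 (log2). Knockout replicate 3 had 8 of 8 above, with a mean deviation of 0.16. Wild type replicate 5 had 6 of 8 above, and was the highest array for Lox (0.38 above the gene mean), Mfap5 (0.31), Mfap4 (0.15) and Fbln5 (0.15), while the deviation of Emilin1 there was −0.37.

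Other cell markers on the same arrays are given beside this. On wild type replicate 3, the neuron marker mean was the highest and the smooth muscle mean, 12.28, the lowest of the 9. Knockout replicate 1, the next highest in neuron markers, had 6 of 8 genes above their mean. On wild type replicate 5 the mean of 9 fibroblast markers was 11.92 against 11.19 to 11.70 on the other arrays, and that of 7 macrophage markers 9.37 against 8.29 to 8.97. Knockout replicate 3 had a mean of 4 tested skeletal muscle markers of 9.71, against 4.60 to 5.17 elsewhere; Myh4, Myh1 and Myh2 did not pass the filter. Between genotypes, all 8 tested adipocyte, 7 brown adipocyte and 9 neuron markers had a change below 0, with 0 called. The adipocyte, brown adipocyte and neuron means differed by −0.26, −0.52 and −1.21. The neuron difference includes wild type replicate 3, at 10.93. Wild type replicates 1, 4 and 5 read 5.94, 7.62 and 4.82, within the knockout range of 4.82 to 9.18 but for replicate 5, just under it. The other way went 4 of 4 skeletal muscle and 7 of 8 smooth muscle markers. The skeletal muscle direction includes knockout replicate 3. Without it, the marker mean was 4.60 to 5.11 on the knockout arrays, against 4.65 to 5.17 in wild type. With the adipocyte mean as a covariate, the Eln changes were 0.23 (SE 0.13) and 0.34 (SE 0.19), and that of Emilin1 1416414_at was 0.38 (SE 0.16). The part of these markers in the array pattern was not tested.

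Over all arrays, Fbln5 followed both Lox and Mfap5. The Pearson r was 0.88 for Fbln5 with Lox (Spearman rho 0.78) and 0.88 for Fbln5 with Mfap5 (rho 0.75), each over 9 arrays that share their preparation. These values were 0.73 and 0.76 without wild type replicate 5. Lox with Mfap5 had an r of 0.79 (rho 0.41), which dropped to 0.35 without that array. The highest Spearman rho of all pairs, 0.85, was that of Mfap4 with Mfap5 (r 0.72, and 0.66 without wild type replicate 3). Mfap4 went with Ltbp4 at an r of 0.75 (rho 0.67, and r 0.65 without wild type replicate 3). Eln went with Loxl1 at an r of 0.83 (rho 0.80), and at 0.71 without wild type replicate 3. These r values pool the genotypes. Once the mean of each genotype was removed, r was 0.80 for Eln with Loxl1. It was then 0.88 for Eln with Lox and 0.84 for Eln with Fbln5, against pooled values of 0.43 and 0.58. For Eln with Emilin1 it fell from 0.60 to 0.25. Emilin1 went with Loxl1 at 0.80 (rho 0.77, and 0.59 without wild type replicate 3) and with Lox at −0.22 (rho −0.20). Without the 2 arrays farthest from the median of the first gene, r was 0.63 for Fbln5 with Lox, 0.75 for Fbln5 with Mfap5, 0.87 for Lox with Mfap5, 0.70 for Mfap4 with Mfap5, 0.55 for Mfap4 with Ltbp4, 0.94 for Eln with Loxl1, 0.56 for Emilin1 with Loxl1 and −0.02 for Emilin1 with Lox. On that same measure, which pools the genotypes, r was 0.26 for Eln with Lox, 0.34 for Eln with Fbln5 and 0.60 for Eln with Emilin1. In all, 28 pairs of genes were computed.

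**Figure D3:**
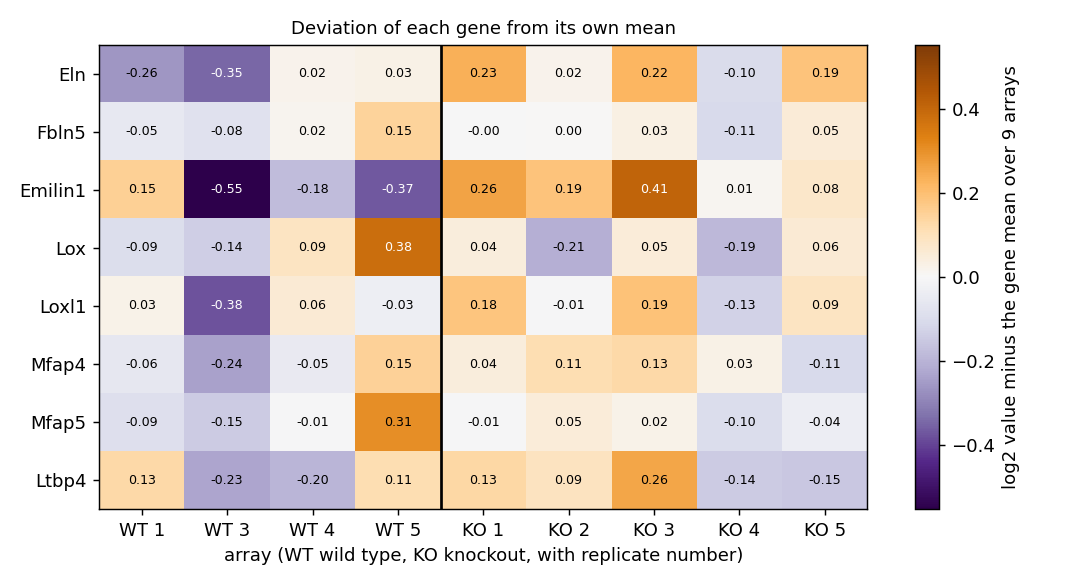
Log2 value minus the gene's mean over the 9 arrays (colour and printed number) for the brightest probe set of each of 8 genes, with wild type arrays left of the line and knockout arrays right of it. Wild type replicate 3 is below the mean for all 8 genes, knockout replicate 3 above it for all 8, and wild type replicate 5 is highest for Fbln5, Lox, Mfap4 and Mfap5.

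The 3 tested genes with the pattern most like elastin over the 9 arrays were Rnf26, Slc25a24 and Gm4117, with Pearson r of 0.96, 0.95 and 0.95 and Spearman rho of 0.98, 0.95 and 0.90. Rnf26 encodes a ubiquitin ligase of the endoplasmic reticulum and Slc25a24 a mitochondrial carrier of ATP-Mg and phosphate. Rnf26 had a change of 0.10 (SE 0.06), Slc25a24 of 0.13 (SE 0.07), or 0.09 (SE 0.07) without wild type replicate 3, and Gm4117 of 0.61 (SE 0.21), and 0 of the 3 passed (adjusted p 0.177 to 0.341, limma). Among the 14320 genes ranked by r with Eln, Loxl1 stood at rank 75 and Emilin1 at 1299, and the other 5 elastic fibre genes lay between ranks 1487 and 3504. Since the highest r was picked out of all tested genes, it is a description of these arrays.

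The wider elastic fibre system was read from 6 lists with 57 genes, of which 51 were tested at 1 probe set per gene, the brightest. Of these, 0 passed the limma test over all genes, which called 8 of 14321 genes (0.0559%), and 9 had an unadjusted p under 0.05, 4 higher and 5 lower, where 19.9% of all genes reach that p, 12.8% upward and 7.12% downward. The groups did not overlap for 2 of the 51, against 6.76% of all genes. The shares for the lists, 17.6% and 3.92%, lay near or under the background.

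Family relatives of the elastic fibre genes numbered 17 tested, 10 with a change above 0 and 7 below, with a median of 0.03 against 0.03 over all genes. The 3 with the smallest p were Hmcn1, hemicentin-1, at −0.54 (SE 0.22), Mmrn2, the endothelial multimerin-2, at −0.32 (SE 0.14), and Mfap3 at 0.18 (SE 0.09), with adjusted p-values of 0.230 to 0.283 (limma). The values of Hmcn1, 4.05 to 5.61 on its only probe set, lay near the filter of 4. With the adipocyte marker mean as a covariate, Hmcn1 stood at −0.31 (SE 0.20) and Mfap3 at 0.09 (SE 0.08). Mfap3 stood at 0.11 (SE 0.08) without wild type replicate 3, and its further probe sets stood on both sides of 0, at 0.15 (SE 0.12) and −0.14 (SE 0.08). The 3 further probe sets of Mmrn2 stood at −0.34, −0.44 and −0.69. Mmrn2 is made in endothelium, and all 7 endothelial markers had a change below 0, with a mean of 9.09 to 9.57 in wild type and 8.89 to 9.20 in the knockout. The part of endothelial content in that value was not tested.

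Of 8 tested ADAMTS and ADAMTS-like genes whose products bind microfibrils, 5 lay above 0 and 3 below (median 0.11). Adamts6 stood at 0.18 (SE 0.09) on its brightest probe set and at 1.28 on its other, dimmer one, whose spread is not given here. It is named after its values were seen. Adamtsl2, which in mice and humans acts with fibrillin microfibrils, read 8.34, 8.96, 8.60 and 9.38 in wild type and 7.45, 7.23, 8.05, 8.39 and 7.24 in the knockout. Knockout replicate 4 alone lay above the lowest wild type array, and the change of −1.15 (SE 0.29) did not pass (adjusted p 0.132, limma). Adamts10, a microfibril-bound protease, stood at 0.42 (SE 0.11, adjusted p 0.135) and at 0.19 on its other probe set. Adamtsl4, a fibrillin-1 binding protein, stood at 0.22 (SE 0.11, adjusted p 0.303), and at 0.12 (SE 0.09) without wild type replicate 3. Both Adamtsl2 (−1.31, adjusted p 0.0460) and Adamts10 (0.52, adjusted p 0.0189) passed in limma without wild type replicate 1. Without that array 1631 of 26775 probe sets were called in all, and neither gene passed with any other single array left out. With the adipocyte marker mean as a covariate, Adamtsl2 stood at −0.81 (SE 0.23).

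Receptors of the elastic fibre were spread to both sides: 5 of 9 were above 0 and 4 below, with a median of 0.06. Itga5, the fibronectin-binding integrin alpha chain, read 12.27, 12.77, 12.85 and 12.86 in wild type and 12.20, 11.86, 12.16, 12.24 and 12.22 in the knockout. Every knockout value was under every wild type value, though wild type replicate 1 lay just above knockout replicate 4. The change was −0.55 (SE 0.14, adjusted p 0.131, limma), and the 3 further probe sets stood at −0.90, −0.83 and −0.78.

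Itgb3, which pairs with the alpha V chain to bind RGD-containing matrix proteins, stood at 0.45 (SE 0.12, adjusted p 0.134) and at 0.22 on its other probe set. Itgb5, for which the groups did not overlap either, read 11.51 to 11.91 in wild type and 11.95 to 12.10 in the knockout, a change of 0.23 (SE 0.09, adjusted p 0.206); it is named after its values were seen. Ctsa, the protective protein of the elastin-binding receptor complex, stood at 0.25 (SE 0.08, adjusted p 0.163) and at 0.07 (SE 0.11) on its other probe set. Without wild type replicate 1, Itga5 (−0.69, adjusted p 0.0123), Itgb3 (0.53, adjusted p 0.0369) and Ctsa (0.32, adjusted p 0.0315) passed in limma. Without that array 1631 of 26775 probe sets were called in all. None of these genes passed with any other single array left out.

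Proteases that can degrade elastin showed no call among 6 tested, 3 above and 3 below 0 (median −0.01). Ctss, cathepsin S of macrophages, stood at −0.50 (SE 0.24, adjusted p 0.273), Ctsk, cathepsin K, at −0.18 (SE 0.13, adjusted p 0.468) and Mmp14, a membrane metalloprotease, at 0.07 (SE 0.11, adjusted p 0.778). The further probe sets of Mmp14 stood at −0.07 (SE 0.08) and 0.31 (SE 0.14). Without wild type replicate 3, Ctss stood at −0.33 (SE 0.23) and Mmp14 at −0.01 (SE 0.11). Ctss stood at −0.76 (SE 0.14) without wild type replicate 4, and Ctsk, whose highest array was wild type replicate 5 at 8.12, at −0.05 (SE 0.10) without that array. The macrophage marker mean was 8.29 to 9.37 in wild type and 8.45 to 8.70 in the knockout, with 7 of 7 markers below 0 in change, and its part in the Ctss value was not tested. Mmp7, Mmp12 and Elane did not pass the filter.

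Genes of lysyl oxidase maturation and copper supply lay 2 above and 6 below 0 (median −0.08, 0 called). Atp7a, the copper pump that loads secreted enzymes, stood at −0.25 (SE 0.14, adjusted p 0.366), Postn, periostin, at −0.10 (SE 0.06, adjusted p 0.397) and Bmp1, which releases the propeptide of lysyl oxidase, at 0.13 (SE 0.09, adjusted p 0.440). Atp7a was highest and Bmp1 lowest on wild type replicate 3, and without it they stood at −0.09 (SE 0.08) and 0.06 (SE 0.08). The other probe set of Atp7a stood at −0.24 (SE 0.19), and those of Bmp1 at −0.003 (SE 0.16) and 0.15 (SE 0.19). Of the 3 TGF-beta ligands, Tgfb2 stood at −0.38 (SE 0.13, adjusted p 0.168), Tgfb1 at −0.13 (SE 0.13) and Tgfb3 at 0.08 (SE 0.13), or 0.004 (SE 0.13) without wild type replicate 3. The 3 further probe sets of Tgfb2 stood at −0.74, −0.58 and −0.63, and Tgfb2 passed without wild type replicate 1 (−0.49, adjusted p 0.0355, limma). Without that array 1631 of 26775 probe sets were called in all, and Tgfb2 passed with no other single array left out.

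**Figure D4:**
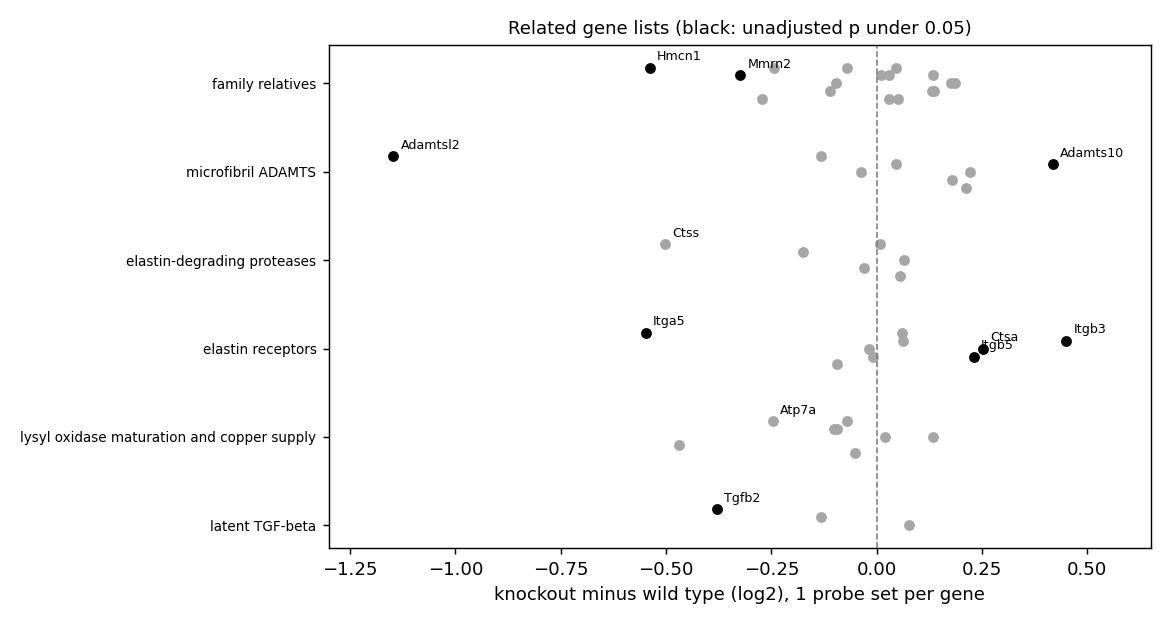
Change (x axis, knockout minus wild type, log2) of the 51 tested genes of the 6 related lists, 1 point per gene at its brightest probe set; black points have an unadjusted p under 0.05 in limma and grey points do not. The 9 black points lie on both sides of 0, with Adamtsl2 lowest at −1.15 and Itgb3 highest at 0.45.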

How the data were processed

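Per the submitters' processing notes, the authors used GCRMA, which corrects background, normalizes between arrays and summarises each probe set; its version is not given in the sources used here. The deposited values were taken as log2 because each array runs from about 2 to 15. Of 45101 probe sets, the platform annotation gives a single symbol to 34945, and those over 4 on at least 4 arrays (26504) were tested. The column of wild type replicate 2 is empty. The test was limma 3.58.1 under R 4.3.3 (lmFit and eBayes, no covariate). Benjamini-Hochberg adjustment ran over all tested probe sets or, for the related lists, over 14321 genes at their brightest probe set, with a threshold of 0.05. The number of arrays limits the precision.

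Members, lists, tests and alternatives were chosen with earlier results of these data known. Genes named were Ptgds, all members, the 3 smallest p of each list and the 3 genes most correlated with Eln. Itgb5 and Adamts6 were added after their values were seen. Same-numbered arrays of the 2 genotypes correlated at −0.27 to 0.15 in their deviations, so numbers were not used as pairs. In simulated arrays with independent noise and 200 changed among 26504 probe sets, limma called 53% at a 1.5-fold change, 87% at 2-fold and 97.9% at 4-fold. The largest change of an elastic fibre probe set was 1.34-fold, a size that was not simulated. Noise shared between probe sets was not simulated either, so these rates cannot tell whether the elastic fibre changes were detectable. Alternatives covered normalization, filter, moderation, array weights, probe set choice, covariates, threshold, the replicate number as a block and left-out arrays.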

Additional observations from a re-analysis of the deposited data

Results flagged for a closer look

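In 96 groups of 4 or 5 arrays, 8 held an array whose gap to its nearest neighbour was large for the range of its group (Dixon's test); chance flags about 1 in 20. None of these belongs to an elastic fibre gene itself. Wild type replicate 1 read 12.27 for Itga5, below the other wild type arrays (12.77 to 12.86), and knockout replicate 2 read 11.86, below the other knockout arrays (12.16 to 12.24). Knockout replicate 3 was high for Adamtsl4 (8.38 against 8.06 to 8.12) and for Tgfb1 (7.14 against 6.70 to 6.77). Wild type replicate 3 read 11.08 for Atp7a, against 10.42 to 10.45. Knockout replicate 4 was low for Gm4117, at 6.00 against 6.52 to 6.71. Among marker means, knockout replicate 1 stood at 9.18 for neuron markers (4.82 to 5.78 on the other knockout arrays) and knockout replicate 3 at 9.71 for skeletal muscle markers (4.60 to 5.11).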

How the results depend on the processing

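The 14 probe sets of elastic fibre genes held 0 calls in limma under all 14 alternatives that changed a setting, the choice of probe sets (8 genes) or left out 2 arrays, and 0 to 1 when any single array was left out, the 1 being Emilin1 1416414_at without wild type replicate 1. The count over all probe sets, 21, moved to 66 with limma's trend and robust options, 367 with array weights, 244 at an adjusted p of 0.10, 5 with the adipocyte marker covariate, 2 with the smooth muscle marker covariate and 6 without the 2 arrays highest in neuron markers. It was 8, 10 and 10 genes at the brightest probe set, the one of largest SD or the mean of a gene's probe sets, where fewer features were tested. With any 1 array left out it ran from 6 to 1631. With the replicate number as a block it was 1, and Ptgds, at −5.30, missed the threshold (adjusted p 0.091); 0 elastic fibre probe sets passed there. Otherwise the cause of these moves was not tested.

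Changes near 0 crossed it. With the smooth muscle marker covariate, Fbln5 1416164_at stood at 0.0021, Loxl1 1451978_at at −0.015, Loxl1 1436063_at at −0.10, Mfap5 1418454_at at 0.017, Ltbp4 at −0.015, Mmp14 at −0.13 and Tgfb3 at −0.018. Without the 2 arrays highest in neuron markers, Loxl1 1436063_at stood at −0.071, Ltbp4 at −0.00063 and Mmp14 at −0.029. Mfap5 1418454_at stood at 0.0035 with the adipocyte covariate and Tgfb3 at −0.040 with array weights. Slc25a24 stood at −0.22 on its probe set of largest SD and −0.043 at the mean of its probe sets. With any 1 array left out, the ranges were −0.042 to 0.033 for Fbln5 1416164_at, −0.14 to 0.030 for Emilin1 1431834_a_at, −0.041 to 0.15 for Loxl1 1436063_at, −0.083 to 0.068 for Mfap5 1418454_at, −0.13 to 0.0066 for Mfap5 1449082_at and −0.0100 to 0.14 for Mmp14. Both Eln probe sets, Emilin1 1416414_at and Mfap4 stayed above 0, and the tested Lox probe sets and Fbln5 1446377_at below it, under every alternative run. The cause was not tested.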
